A study of Sus scrofa with 22 samples.

Results

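In the cerebellum of piglets (Sus scrofa), 43 listed genes were followed. They encode ionotropic and metabotropic glutamate receptors, the auxiliary subunits of AMPA and kainate receptors and the scaffold proteins beneath them. Members were taken by gene symbol from the deposited table of each animal, which held 31907 gene identifiers. Of the 43 genes, 40 had an identifier in the tables and 38 passed the count filter, among 14994 genes tested. BDL animals (11 piglets, 7 female and 4 male) underwent ligation of the bile duct, an operation that stops bile from leaving the liver, at 8 days of age. SHAM animals (11 piglets, 5 female and 6 male) had sham surgery at the same age. Both groups were then followed for 3 weeks. The labels state neither breed nor litter nor the unit of body weight.

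Glutamate is the main excitatory transmitter of the cerebellum. It is released by mossy fibres onto granule cells, by the parallel fibres of granule cells onto Purkinje cells and interneurons, and by climbing fibres onto Purkinje cells. AMPA receptors carry the fast current, NMDA receptors admit calcium and require a common subunit joined to a variable one, and metabotropic receptors signal through G proteins. In rodents, granule cells exchange the NMDA subunit GRIN2B for GRIN2A and GRIN2C as the cerebellum matures.

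Libraries held between 14811464 and 20046909 gene counts. Levels are given as CPM, counts relative to a common library total, scaled by the TMM method of edgeR and not corrected for transcript length, so levels are compared between animals and not between genes. All 13 granule neuron markers passed the filter, and GABRA6, the cerebellar granule cell GABA-A receptor subunit, was at 318.5 to 423.3 CPM. EMX1, a forebrain transcription factor gene, had at most 2 counts in any library, while NEUROD6, which is also used as a forebrain marker, was at 7.16 to 21.1 CPM. The defining markers of the labelled tissue were thus present.

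No listed gene passed the test of BDL against SHAM, which asks whether cerebellar transcripts differ after early obstruction of bile flow. edgeR's quasi-likelihood test called 0 of 38 members at an adjusted p under 0.05, against 0.0% of all genes tested. At an unadjusted p under 0.05 stood 1 member, GRIN2A, on the lower side, beside 4.96% of all genes in either direction and 2.73% on the lower side. limma-voom and DESeq2 also called 0 members, each with 1 member at an unadjusted p under 0.05. Members were below zero in 27 of 38 cases with a median log2 fold change of -0.04, whereas 49.7% of all genes were below zero with a median of 0.00. The 95% confidence interval lay inside 1.25-fold in either direction for 31 members (81.6%, against 63.6% of all genes) and inside 2-fold for all 38 tested. In 0 members were the CPM ranges of the 2 groups apart, as in 0.0% of all genes. In bulk tissue, fewer cells of a type and less RNA per cell cannot be told apart.

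**Figure D1:**
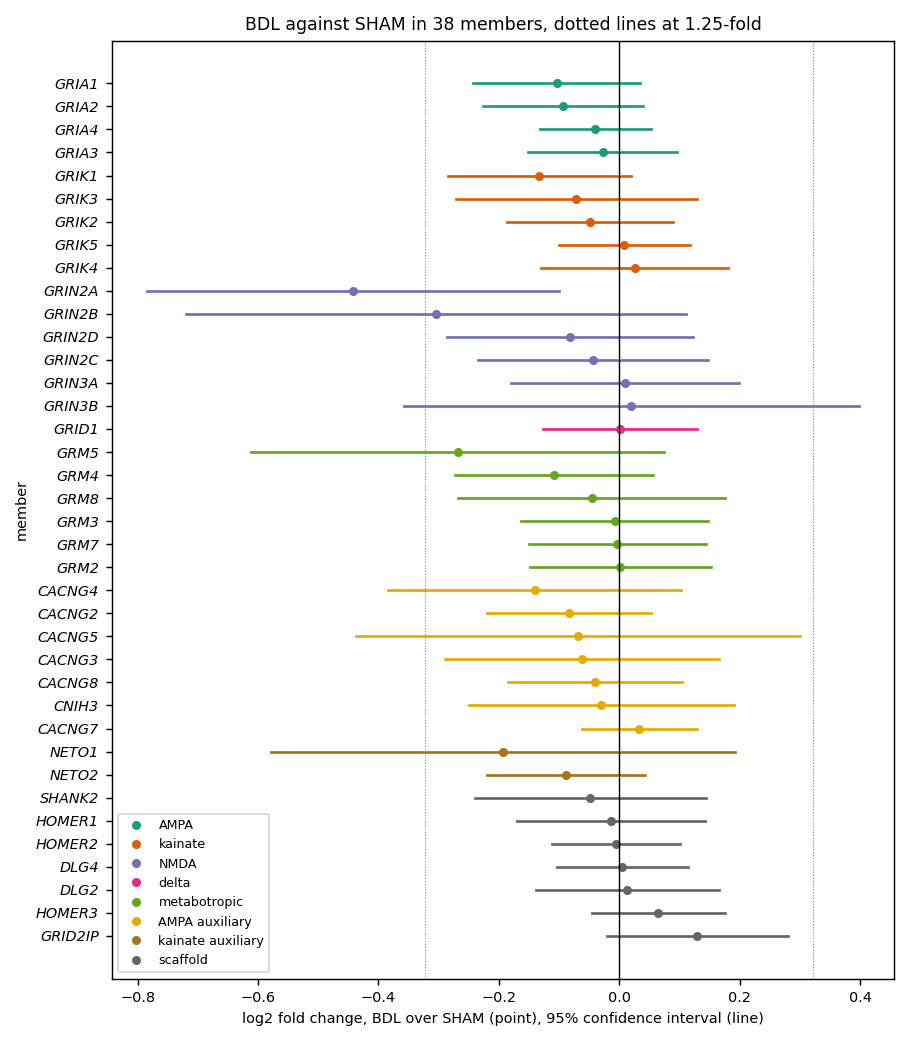
Log2 fold change of BDL over SHAM (horizontal axis; point, edgeR estimate; line, 95% confidence interval) of the 38 members tested, grouped and coloured by class, with dotted lines at 1.25-fold in either direction. GRIN2A, at -0.44, is the only member whose interval lies off zero, and the intervals of GRIN2B, GRM5, CACNG4, CACNG5, NETO1 and GRIN3B also cross a dotted line.

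The NMDA receptor genes held the widest differences. GRIN2A, the subunit that gives mature synaptic NMDA receptors their fast decay (chromosome 3, 32749329 to 33149350, Sscrofa11.1), ran from 8.19 over a median of 15.3 to 22.6 CPM in BDL animals, against 12.4, 21.0 and 32.2 CPM in SHAM animals. In 9 of 11 BDL animals its level was under the mean of SHAM, and the ranges overlapped. The means were 14.9 ± 4.59 CPM in BDL and 20.5 ± 5.19 CPM in SHAM (SD, n = 11 each). The log2 fold change was -0.44 ± 0.17 (SE), with a 95% interval of the fold from 0.581 to 0.933, an unadjusted p of 0.0135 and an edgeR adjusted p of 0.881. The lowest values, 8.19, 8.90 and 10.7 CPM, came from BDL replicates 2, 8 and 4, all female.

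GRIN2B, the subunit of immature NMDA receptors (chromosome 5), was close to the detection limit, with 11 to 37 counts per library. It ran from 0.704 over 1.25 to 1.97 CPM in BDL and from 0.717 over 1.50 to 2.47 CPM in SHAM animals. Its log2 fold change of -0.30 ± 0.20 had an edgeR adjusted p of 0.881. The ranges overlapped, and the highest animal was SHAM. GRIN2C, which replaces GRIN2B in mature rodent granule cells (chromosome 12, 6385407 to 6401454), had the most reads of the class at 143, 196 and 219 CPM (lowest, median, highest) in BDL and 125, 203 and 242 CPM in SHAM. Here the lowest and the highest animal were both SHAM, and the difference was -0.04 ± 0.09.

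The remaining NMDA subunits were at similar levels in both groups. GRIN2D, a subunit with slow decay, averaged 15.7 ± 2.72 CPM in BDL and 16.5 ± 2.40 CPM in SHAM (-0.08 ± 0.10). GRIN3A, a glycine-binding subunit that lowers calcium entry, averaged 16.6 ± 2.93 CPM in BDL and 16.4 ± 1.72 CPM in SHAM (0.01 ± 0.09). Its relative GRIN3B averaged 1.03 ± 0.25 CPM in BDL and 0.982 ± 0.283 CPM in SHAM (0.02 ± 0.18). The identifier of GRIN1, the subunit that every NMDA receptor needs, was listed at 0 counts in all 22 libraries, a depth at which 3 counts in the smallest library correspond to 0.200 CPM. RefSeq places GRIN1 on no named chromosome of Sscrofa11.1, and no level of GRIN1 is given.

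All 4 AMPA receptor genes were on the lower side of zero by small amounts (median log2 fold change -0.07), and none passed the test. GRIA2, whose edited subunit blocks calcium entry (chromosome 8), ran from 259 over 298 to 366 CPM in BDL and from 274 over 341 to 404 CPM in SHAM. In 9 of 11 BDL animals it was under the mean of SHAM, with overlapping ranges, and the difference of -0.09 ± 0.06 had an edgeR adjusted p of 0.881. GRIA1, which in rodent cerebellum is strongly expressed by Bergmann glia, was at 190, 234 and 304 CPM in BDL and 226, 266 and 280 CPM in SHAM (lowest, median, highest). Its BDL values reached beyond the SHAM values at both ends (-0.10 ± 0.07, edgeR adjusted p = 0.881). GRIA3 stood at -0.03 ± 0.06, with 74.1 ± 9.04 CPM in BDL and 75.9 ± 4.37 CPM in SHAM. GRIA4 stood at -0.04 ± 0.04, with 195 ± 16.5 CPM in BDL and 202 ± 8.40 CPM in SHAM.

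Kainate receptors modulate transmission before and after the synapse. Of their 5 subunit genes, 3 were on the lower side, and the class median was -0.05. GRIK1 (chromosome 13) was at 24.9, 26.2 and 32.7 CPM in BDL and 22.9, 29.6 and 35.2 CPM in SHAM (lowest, median, highest). It lay under the mean of SHAM in 9 of 11 BDL animals, and its log2 fold change was -0.13 ± 0.07 (edgeR adjusted p = 0.881). GRIK5, a high-affinity subunit that needs a partner, had the most reads of the class, with 94.9, 104 and 119 CPM in BDL and 87.1, 104 and 119 CPM in SHAM (0.01 ± 0.05). The medians and highest values of GRIK5 were thus nearly equal in the groups. GRIK2, GRIK3 and GRIK4 were between -0.07 and 0.03.

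GRID1, a delta receptor gene whose protein binds secreted cerebellins at synapses, averaged 34.2 ± 3.37 CPM in BDL and 34.4 ± 3.37 CPM in SHAM (0.00 ± 0.06). Its lowest, median and highest values were 29.6, 33.4 and 40.4 CPM in BDL, and 28.9, 34.0 and 40.5 CPM in SHAM, so the groups covered the same range.

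Of the 6 metabotropic receptor genes tested, 5 were on the lower side (median -0.03). GRM5, a group I receptor coupled to calcium release (chromosome 9, 21914422 to 22438200), ran from 10.7 over 25.3 to 34.0 CPM in BDL and from 15.7 over 27.5 to 34.5 CPM in SHAM. BDL animals were spread more widely, with a coefficient of variation of 32.3%, against 17.7% in SHAM animals. The log2 fold change of GRM5 was -0.27 ± 0.17 (edgeR adjusted p = 0.881). GRM4, the group III autoreceptor of parallel fibre terminals in rodents, had the most reads of the class at 338, 442 and 540 CPM in BDL and 367, 468 and 587 CPM in SHAM. The ranges of GRM4 overlapped over most of their length (-0.11 ± 0.08, edgeR adjusted p = 0.881).

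GRM2, a group II receptor of Golgi cells in rodents, GRM3, a group II receptor of glia and neurons, and the group III genes GRM7 and GRM8 were between -0.05 and 0.00. GRM6, known from retinal bipolar cells, had 93 counts over all libraries and at most 9 in any of them, and did not pass the filter.

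Among the AMPA receptor auxiliary genes, 6 of 7 were on the lower side (median -0.06). CACNG7, a type II transmembrane regulatory protein, had the most reads, at 222, 249 and 283 CPM in BDL and 216, 240 and 275 CPM in SHAM (0.03 ± 0.05). CACNG2, which encodes stargazin and is required for AMPA receptors at the surface of mouse granule cells, averaged 18.9 ± 1.95 CPM in BDL and 20.0 ± 1.81 CPM in SHAM (-0.08 ± 0.07). CACNG4, at -0.14 ± 0.12, was farthest from zero in the class. CACNG3, CACNG5, CACNG8 and the cornichon CNIH3, an export partner of AMPA receptors, lay between -0.07 and -0.03. CNIH2 was not analysed here.

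Both kainate auxiliary genes were on the lower side. NETO2 (chromosome 6) was at 110, 125 and 149 CPM in BDL and 111, 134 and 166 CPM in SHAM (-0.09 ± 0.06, edgeR adjusted p = 0.881), and but for its lowest animal the BDL group lay within the SHAM range. Without SHAM replicate 7, NETO2 stood at -0.05. NETO1, at 2.23 ± 0.798 CPM in BDL and 2.60 ± 0.655 CPM in SHAM, stood at -0.19 ± 0.19.

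The 7 scaffold genes were split about zero, with 3 on the lower side and a median of 0.01. DLG4, the core scaffold of the postsynaptic density (chromosome 12), was at 318, 386 and 444 CPM in BDL and 351, 374 and 422 CPM in SHAM (0.01 ± 0.05). Its SHAM values lay within the BDL range. GRID2IP, which encodes delphilin, a scaffold of parallel fibre synapses on Purkinje cells (chromosome 3, 4667282 to 4699821), was at 43.1, 54.2 and 56.4 CPM in BDL and 37.0, 44.8 and 62.3 CPM in SHAM. It exceeded the mean of SHAM in 9 of 11 BDL animals, although the highest animal was SHAM, and its log2 fold change of 0.13 ± 0.07 was the largest on the higher side among the members (edgeR adjusted p = 0.881).

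HOMER1, HOMER2 and HOMER3 encode adaptors between metabotropic receptors and calcium stores and stood at -0.01 ± 0.08, -0.01 ± 0.05 and 0.06 ± 0.05. SHANK2, which links these complexes to actin, was at -0.05 ± 0.09, and DLG2, a relative of DLG4, at 0.01 ± 0.07. SHANK1 and SHANK3 were not analysed here.

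**Figure D2:**
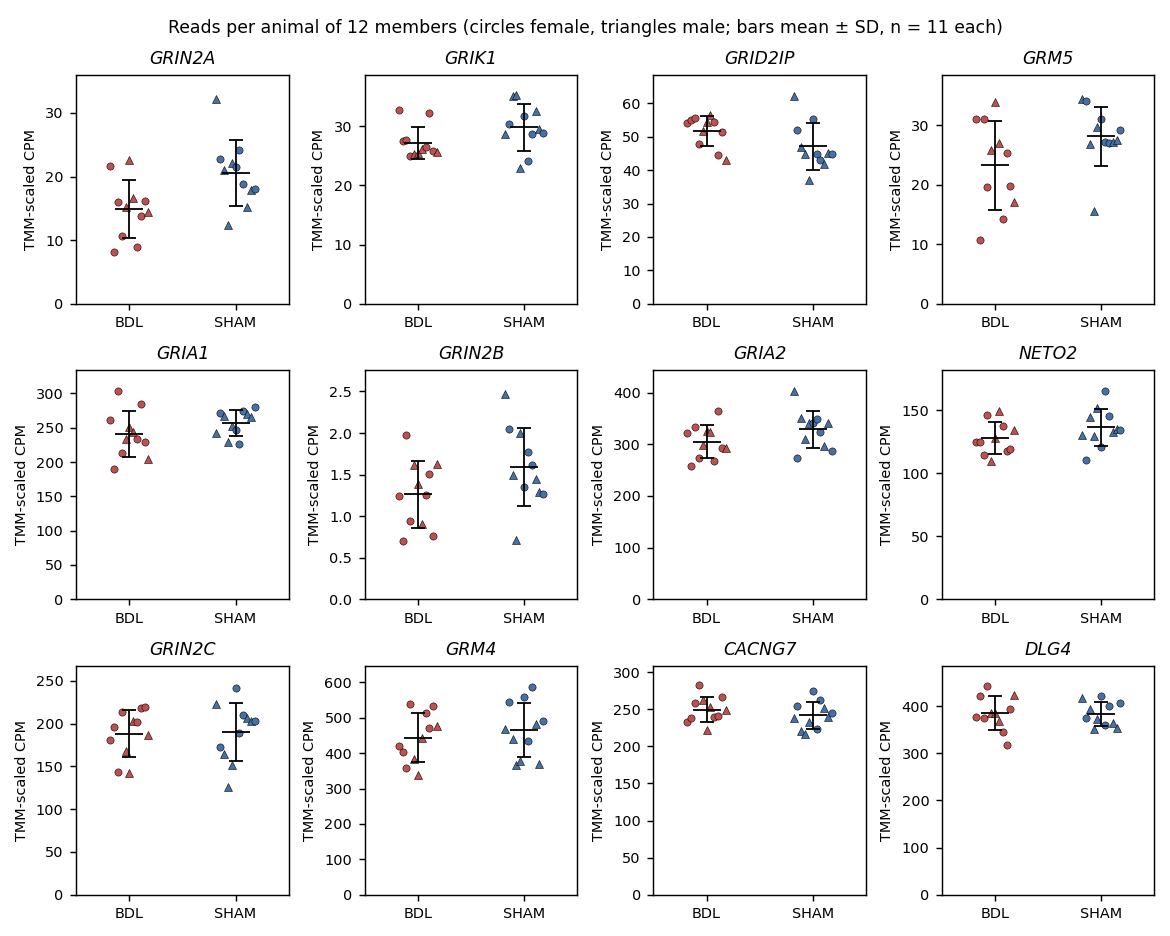
TMM-scaled CPM (vertical axes, from 0) of 12 members in each animal, BDL left and SHAM right, females as circles and males as triangles, with mean and SD bars (n = 11 each). The ranges overlap in every panel shown, and the lowest GRIN2A values, down to 8.19 CPM, are BDL females.

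Subunit composition was described as the share of each gene in the reads of its family, per animal. In 29 of 29 shares, the group means differed by less than the larger SD between animals, and shares were given no test. That SD is the spread between animals and not the error of a group mean, so it does not show equal shares. Among the GRIN2 genes, GRIN2C held 85.2 ± 4.24% of the reads in BDL and 82.9 ± 2.62% in SHAM (SD, n = 11 each), and GRIN2A held 6.94 ± 2.61% in BDL and 9.03 ± 1.91% in SHAM. The log2 ratio of GRIN2C to GRIN2A was 3.71 ± 0.61 in BDL and 3.23 ± 0.35 in SHAM, and 8 of 11 BDL animals exceeded the mean of SHAM. That of GRIN2A to GRIN2B, the pair exchanged during maturation in rodents, was 3.57 ± 0.54 in BDL and 3.72 ± 0.23 in SHAM.

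AMPA receptor reads were divided nearly alike. GRIA2 held 37.5 ± 1.20% in BDL and 38.02 ± 2.93% in SHAM, and GRIA1 held 29.5 ± 1.76% in BDL and 29.8 ± 2.5% in SHAM. Within the kainate, metabotropic, CACNG and HOMER families, GRIK5 held 36.5 ± 3.17% in BDL and 35.3 ± 1.54% in SHAM. GRM4 held 74.6 ± 5.30% in BDL and 75.0 ± 2.18% in SHAM, CACNG7 held 72.4 ± 2.74% in BDL and 71.0 ± 1.78% in SHAM, and HOMER3 held 65.0 ± 2.92% in BDL and 63.9 ± 2.68% in SHAM. Because longer transcripts give more reads, these shares compare groups and do not give the number of subunits made.

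**Figure D3:**
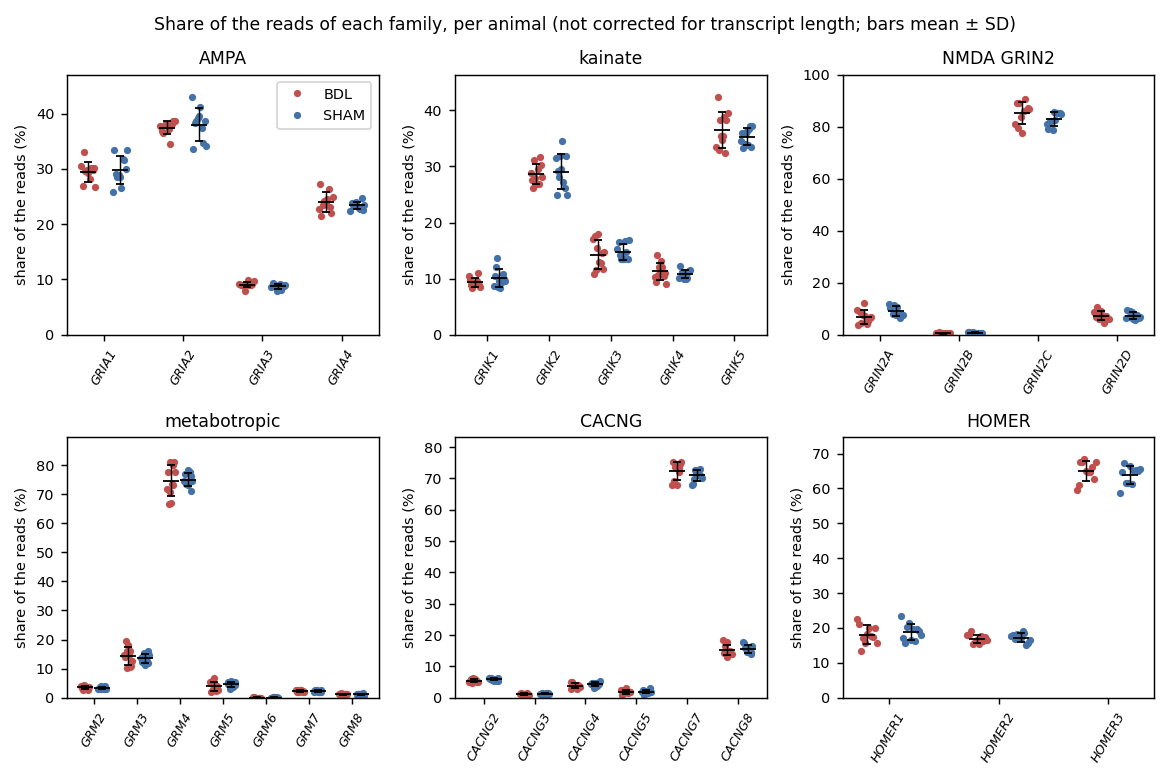
Share of the family's reads (vertical axes, percent, not corrected for transcript length) of each gene in 6 families, with 1 point per animal, BDL left of SHAM, and mean and SD bars (n = 11 each). GRIN2C takes 85.2% of GRIN2 reads in BDL and 82.9% in SHAM. No gene's mean share differs between groups by as much as the larger SD between animals, which is no test of the means.

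GRIN2A, GRIN2B and GRM5, the members farthest below zero, varied with many other genes across animals. The first principal component of the 14956 other genes tested carried 16.2% of their variance. BDL animals scored between -2.47 and 0.95 on it with a median of 0.11, and SHAM animals between -0.65 and 1.63 with a median of 0.19, in SD units. The means lay farther apart, at -0.35 in BDL and 0.35 in SHAM. BDL replicates 2, 4 and 8 had the lowest scores, -2.47, -1.85 and -1.80, apart from the other 19 animals. The coefficient of variation of CPM was larger in BDL than in SHAM for 25 of 38 members (65.8%) and 54.3% of all genes, and without those 3 animals for 18 of 38 members (47.4%) and 40.8% of all genes. Genes with a high loading tended to be long, with a Spearman correlation of 0.44 between loading and genomic span across 11535 genes, which are not independent replicates. The component was higher where fewer genes were detected (r = -0.54, rho = -0.49, permutation p = 0.00947 and 0.0229, adjusted over 4 library measures 0.0379 and 0.0915), and r was -0.33 without the 2 animals farthest from the median score. Its correlations with the share of reads in no gene, the gene count and body weight were -0.28, -0.12 and 0.04, and the part of these measures in the results was not tested.

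Of the 38 members, 16 correlated with that component at r over 0.5 and 0 at r under -0.5, while among the other genes 14.3% were over 0.5 and 14% under -0.5. The relation was closest for GRIN2A (r = 0.88, rho = 0.77, n = 22), with 0.89 within BDL and 0.89 within SHAM, and 0.72 without BDL replicates 2, 4 and 8. GRM5 followed (r = 0.85, rho = 0.72), with 0.89 in BDL, 0.63 in SHAM and 0.69 without those 3 animals. GRIA2, NETO1, DLG2 and GRIN2B were between 0.70 and 0.81. All 4 AMPA receptor genes were among the 16. Without the 3 animals, 9 of the 16 were still over 0.5, and 7 were not: GRIA1 (0.15), GRM3 (0.28), GRIA3 (0.32), CACNG4 (0.34), GRIK3 (0.40), CACNG5 (0.45) and GRID1 (0.46). GRIK1 had an r of 0.08 with the component and NETO2 of 0.03, although both were also on the lower side. Over all animals, r was -0.20 for GRIN2C, -0.26 for GRM4, -0.33 for GRIK5, -0.23 for CACNG7 and -0.12 for DLG4. Of these, GRIN2C was at -0.59 in BDL and 0.29 in SHAM, GRM4 at -0.57 in BDL and 0.02 in SHAM, and GRIK5 at -0.71 in BDL and 0.24 in SHAM. The median genomic span was 342 kb over the 16 members and 98.9 kb over 21 of the other 22, for which a span was given.

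GRIN2A, GRM5, GRIN2B, GRIA2 and GRIA1 stood nearer to zero without these 3 animals, which were chosen after their scores were seen, or with the component in the fit. The 3 animals, all BDL, had the lowest GRIN2A and GRIA2 levels of all animals. Leaving them out could thus only raise the BDL means of GRIN2A and GRIA2, and the nearer values are no separate evidence. Without BDL replicates 2, 4 and 8, 20 of 38 members were on the lower side and their median was -0.01, beside -0.01 for all genes. With the component as a further term in the fit, 21 were on the lower side with a median of -0.01. Because the mean score was lower in BDL than in SHAM, this term also takes up part of the difference between the groups. GRIN2A was at -0.27 ± 0.14 without the 3 animals and at -0.21 ± 0.09 with the component (unadjusted p 0.0755 and 0.0205, edgeR). GRM5 was at -0.09 ± 0.13 and -0.08 ± 0.09, GRIN2B at -0.19 ± 0.21 and -0.10 ± 0.17, GRIA2 at -0.04 ± 0.07 and -0.02 ± 0.05, and GRIA1 at -0.04 ± 0.06 and -0.05 ± 0.06, in the same order of settings. GRID2IP was at 0.13 ± 0.08 without the 3 animals and at 0.16 ± 0.07 with the component, and NETO2 at -0.13 ± 0.07 and -0.10 ± 0.07.

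**Figure D4:**
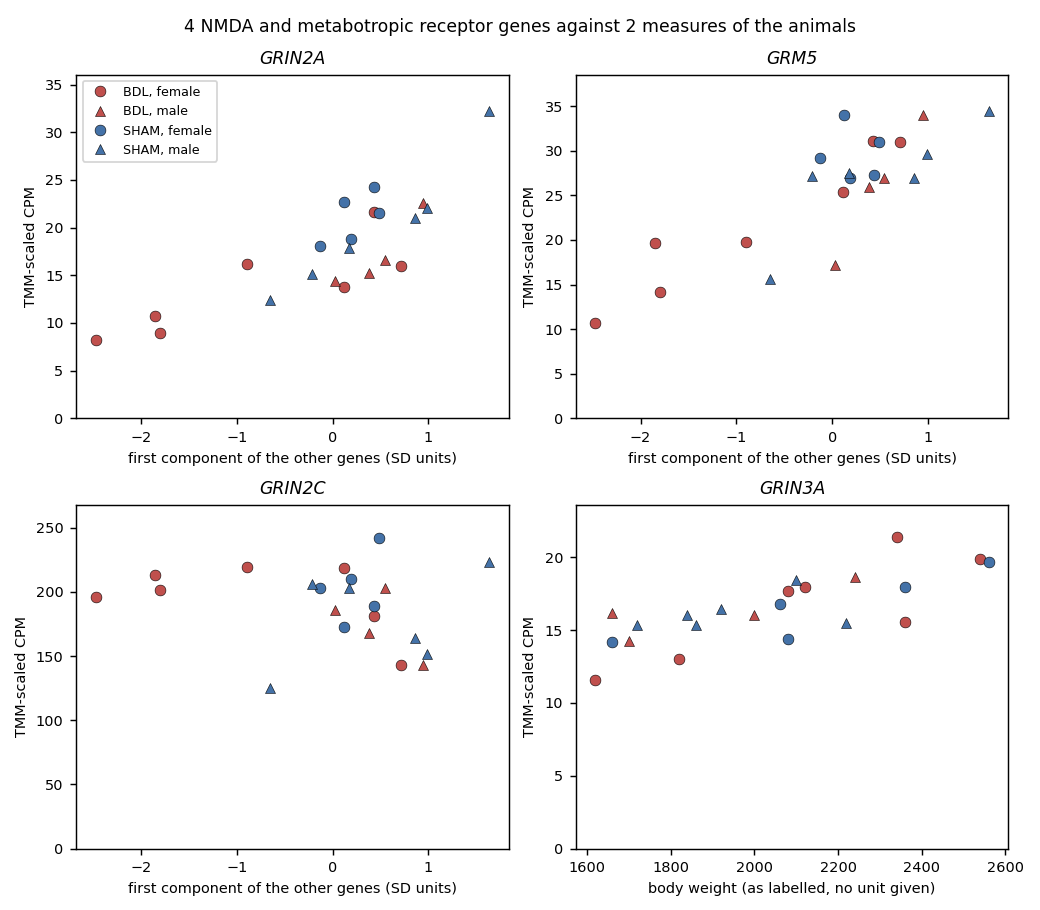
TMM-scaled CPM (vertical axes, from 0) of GRIN2A, GRM5 and GRIN2C against the animal's score on the first component of the other genes (SD units), and of GRIN3A against the labelled body weight, with 1 point per animal (BDL red, SHAM blue; circles female, triangles male). GRIN2A and GRM5 climb with the component (r = 0.88 and 0.85), GRIN2C does not (r = -0.20), and GRIN3A climbs with weight (r = 0.75).

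Over the 703 pairs of members, the median correlation of log2(CPM + 0.5) across the 22 animals was 0.17, and 16.1% of pairs were over 0.5, while over all pairs of genes tested the median was 0.00 and 4.6% were over 0.5. GRIN2A and GRM5 were the closest pair (r = 0.87, rho = 0.86), with 0.89 in BDL, 0.79 in SHAM and 0.73 without BDL replicates 2, 4 and 8. GRM5 was also close to CACNG4 (0.86), CACNG5 (0.81) and SHANK2 (0.81), and GRIK3 to SHANK2 (0.83). GRM2 was closest to GRM8 (r = 0.76, with 0.79 in BDL and 0.73 in SHAM), and GRM8 was next closest to GRIA1 (0.61).

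The 5 genes GRIN2C, GRM4, GRIK5, CACNG7 and DLG4, picked after the correlations were seen, were set against GRM5, GRIN2A, GRIK3, SHANK2, CACNG4 and CACNG5. Over all animals the 30 pairs between these sets had a median r of 0.00, but the groups were of opposite sign. In BDL, 29 of 30 pairs were below zero (median -0.45), and in SHAM, 30 of 30 were above zero (median 0.52). GRIK3 with GRM4 was at -0.60 in BDL and 0.83 in SHAM, and GRIK5 with SHANK2 at -0.69 in BDL and 0.80 in SHAM. Without BDL replicates 2, 4 and 8, 27 of 30 pairs over the remaining animals were above zero (median 0.13). All SHAM animals are among these, so the count does not give the sign within the other BDL animals. The 30 pairs share genes and are not independent, and the difference between groups was not tested. Of 8 pairs that were tested on their own, GRIN2C and GRM4, genes that rodent granule cells express, were closest (r = 0.73, rho = 0.69, permutation p = 0.0001 and 0.00049, adjusted over the 8 pairs 0.0008 and 0.00392). The correlation was 0.89 in BDL and 0.62 in SHAM, and 0.64 without the 2 animals farthest from the median of GRIN2C. GRIN2A and GRIN2B followed (r = 0.65, rho = 0.56, permutation p = 0.00117 and 0.00808, adjusted 0.00468 and 0.0189), with 0.35 in BDL, 0.89 in SHAM and 0.61 without the 2 farthest animals. No correlation of GRIN2A with GRIN2C was detected (r = -0.03, rho = -0.06, permutation p = 0.896 and 0.782, adjusted 0.896 and 0.782), with -0.50 in BDL and 0.43 in SHAM.

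GRIA2 with GRIA4 (r = 0.54, adjusted permutation p = 0.0239) and GRIA1 with GRIA4 (r = 0.47, adjusted permutation p = 0.0377) were weaker. With treatment and sex means removed, GRIA2 with GRIA4 no longer passed (r = 0.44, adjusted permutation p = 0.0605). GRIN2B with GRIA1 (r = 0.47) and GRIA1 with the summed astrocyte and Bergmann glia markers (r = 0.50), each at an adjusted permutation p of 0.0377, had a rho of 0.37 and 0.39 with an adjusted p of 0.125 and 0.121, and r was 0.24 and 0.21 without BDL replicates 2, 4 and 8. GRIN2B with GRIA1 did not pass with treatment and sex means removed (r = 0.42, adjusted permutation p = 0.0714). GRIA1 with the glia markers did (r = 0.58, rho = 0.53, adjusted permutation p = 0.014 and 0.0391). After that removal, r was 0.39 without BDL replicates 2, 4 and 8, 0.77 in females and 0.15 in males. Before that removal, r of GRIA1 with the glia markers was 0.79 in females and 0.002 in males. Most of the glia sum came from GFAP, at a mean of 3762 CPM, with the other markers at means of 2.74 to 971 CPM. HOMER1, whose short form is induced by activity, did not pass with the summed immediate early genes (r = 0.22, adjusted permutation p = 0.375). Among 30 correlations of members with summed marker lists, GRIN2C with the granule neuron markers (r = 0.74, rho = 0.66) and GRIA1 with the cerebellar interneuron markers (r = 0.78, rho = 0.74) were the closest. Their adjusted permutation p was 0.0006 each for r and 0.0138 and 0.0063 for rho, r was 0.67 and 0.71 without the 2 farthest animals, and 0.62 and 0.87 in BDL, against 0.83 and 0.42 in SHAM. In females r was 0.75 and 0.89, against 0.85 and 0.31 in males. Most of the interneuron sum came from KIT, at a mean of 218 CPM, with the other markers at means of 4.20 to 27.8 CPM.

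**Figure D5:**
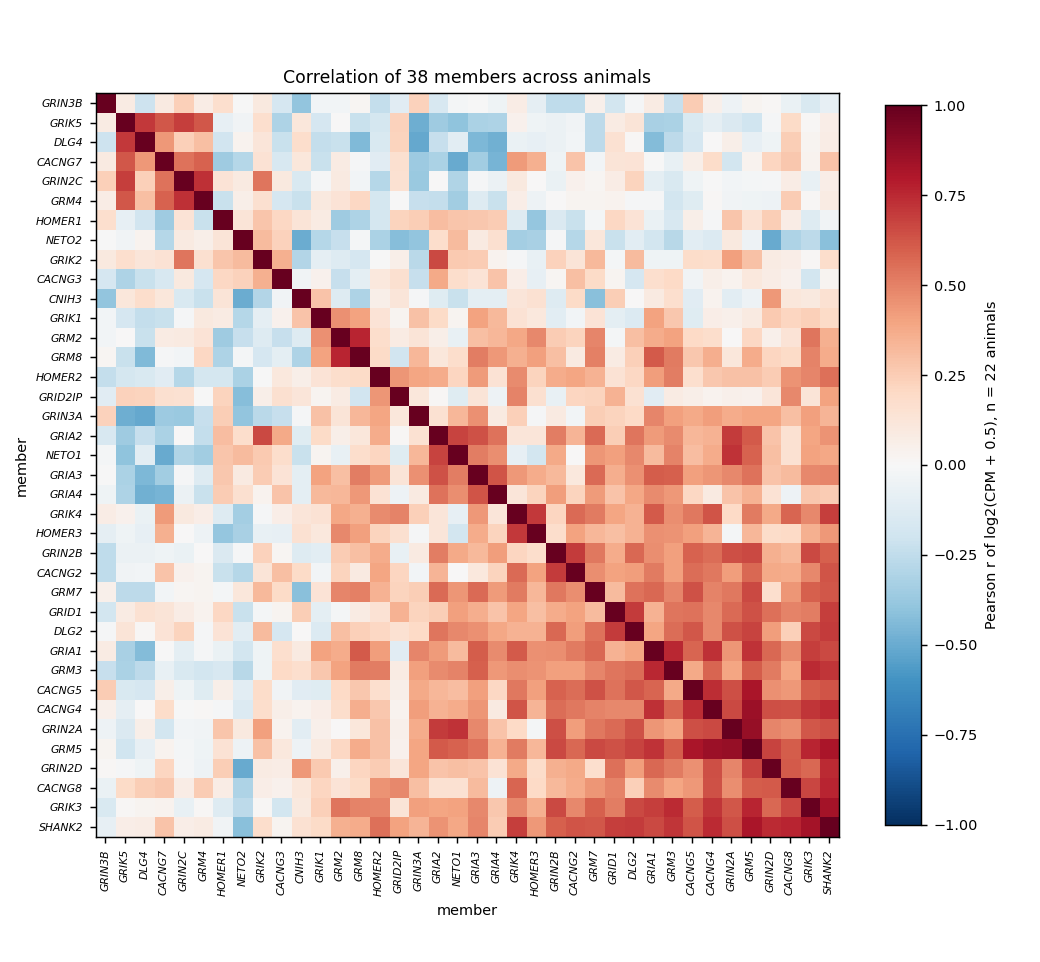
Pearson correlation of log2(CPM + 0.5) across the 22 animals for each pair of the 38 members (both axes, in clustered order; colour scale from -1 to 1). A block with GRM5, GRIN2A, GRIK3, SHANK2, CACNG4 and CACNG5 is red throughout, up to r = 0.87, and a smaller block holds GRIN2C, GRM4, GRIK5, CACNG7 and DLG4.

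Cell markers were set beside these values. The 13 granule neuron markers summed to between 5369 and 6373 CPM in BDL and between 5296 and 6709 CPM in SHAM, and 9 of 13 were on the lower side of zero. Purkinje cell markers summed to between 2759 and 4265 CPM in BDL and between 2836 and 3707 CPM in SHAM, and interneuron markers to between 227 and 434 CPM in BDL and between 281 and 372 CPM in SHAM. All 10 oligodendrocyte markers tested were on the higher side (median 0.18; sums of 5149 to 29020 CPM in BDL and 7371 to 25390 CPM in SHAM), and none was called. Apart from the correlations above, the part of these markers in the members' differences between BDL and SHAM was not tested beyond 1 fit. With the oligodendrocyte level as a further term, GRIN2A stood at -0.47 ± 0.17 and 31 of 38 members were on the lower side.

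Within the sexes, 31 of 38 members were on the lower side in females (median -0.06), where 49.5% of all genes were, and 22 of 38 in males (median -0.02), where 52.5% of all genes were. edgeR called 0 members and 0.0% of all genes in each sex. At an unadjusted p under 0.05 stood GRIN2A in females, beside 5.83% of all genes, and GRIK1 in males, beside 4.08% of all genes. GRIN2A averaged 13.6 ± 4.78 CPM in BDL females and 21.1 ± 2.60 CPM in SHAM females (-0.63 ± 0.22), and 17.2 ± 3.69 CPM in BDL males and 20.1 ± 6.92 CPM in SHAM males (-0.22 ± 0.25). The test of that difference between sexes gave -0.41 ± 0.33 (edgeR adjusted p = 0.917). No interaction of treatment and sex passed in any member or gene (0.0%), and 2 members were at an unadjusted p under 0.05, beside 4.6% of all genes.

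Those 2 were GRID1 and DLG2. GRID1 averaged 32.5 ± 1.67 CPM in BDL females and 35.5 ± 3.57 CPM in SHAM females, but 37.2 ± 3.71 CPM in BDL males and 33.4 ± 3.20 CPM in SHAM males, an interaction of -0.28 ± 0.11 (unadjusted p = 0.0212, edgeR adjusted p = 0.917). DLG2 averaged 187 ± 24.1 CPM in BDL females and 204 ± 12.9 CPM in SHAM females, and 225 ± 4.99 CPM in BDL males and 198 ± 30.3 CPM in SHAM males (-0.31 ± 0.14, unadjusted p = 0.0326, edgeR adjusted p = 0.917). For GRIK1 the interaction was 0.23 ± 0.14, with 25.6 ± 0.42 CPM in BDL males and 30.7 ± 4.70 CPM in SHAM males. The 6 metabotropic receptor genes all had an interaction below zero (median -0.18), beside 48.5% of all genes. BDL replicates 2, 4 and 8 were female, and their part in these interactions was not tested.

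Between the sexes, 0 members were called, beside 0.06% of all genes tested. GRM4 was at 357.5, 501.8 and 586.8 CPM in females and 338.5, 410.8 and 483.5 CPM in males (lowest, median, highest), and 2 of 12 females were below the male mean. Its log2 fold change of females over males was 0.25 ± 0.08 (unadjusted p = 0.00445, edgeR adjusted p = 0.613), while 5.95% of all genes were at an unadjusted p under 0.05. GRIN2C (0.17 ± 0.09) and CACNG8 (0.13 ± 0.07) were next.

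Body weight, which was 2044 ± 313 in BDL and 2035 ± 273 in SHAM animals as labelled, was associated with 1 member at an unadjusted p under 0.05, beside 7.39% of all genes, and with 0 at an adjusted p under 0.05, beside 0.0% of all genes. GRIN3A (chromosome 1, 243263202 to 243416739) was 0.18 ± 0.04 higher on the log2 scale per SD of weight (unadjusted p = 5.76e-05, edgeR adjusted p = 0.335). DESeq2 called it at an adjusted p of 0.0199, and over the alternatives run its adjusted p lay between 0.0199 and 0.377. Its Pearson correlation with weight was 0.75 and its rho 0.76 over 22 animals (permutation p = 0.00011 and 0.00018, 38 such correlations computed), with 0.78 in BDL, 0.74 in SHAM, 0.84 in females, 0.63 in males and 0.68 without the 2 animals farthest from the median weight. HOMER1 was at 0.08 ± 0.04 and GRIN2A at 0.16 ± 0.08 per SD of weight.

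Other genes of the glutamate synapse, taken from textbook lists, were fitted in the same test, and 0 were called by edgeR in any of 5 lists, with 2 of 15 release genes and 4 of 21 synapse organisers at an unadjusted p under 0.05, none in the other 3 lists, and 4.96% of all genes. On the lower side were 49.7% of all genes, against which the following counts are set. Of 15 genes of glutamate release, 11 were on the lower side, among them UNC13C, a vesicle priming factor of granule cells (141 ± 22.3 CPM in BDL and 171 ± 18.9 CPM in SHAM, -0.27 ± 0.08), and RIMS1, an active zone scaffold (187 ± 24.0 CPM in BDL and 226 ± 34.6 CPM in SHAM, -0.28 ± 0.09). RIMS1 was under the mean of SHAM in 11 of 11 BDL animals and UNC13C in 10 of 11, each at an edgeR adjusted p of 0.881. Among 11 genes of glutamate uptake and recycling, 10 were on the lower side, with SLC1A1, a neuronal glutamate transporter, at -0.11 ± 0.06 (26.5 ± 3.02 CPM in BDL and 28.7 ± 2.40 CPM in SHAM).

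Synapse organisers were on the lower side in 14 of 21 cases, with FLRT2, a postsynaptic adhesion protein, at -0.26 ± 0.09 and C1QL1, the climbing fibre ligand, at 0.35 ± 0.15. Of 15 further AMPA receptor partners, 7 were on the lower side, and the trafficking genes NSG1 and CPT1C were both at 0.11 ± 0.06. Postsynaptic signalling and other scaffold genes were on the lower side in 17 of 24 cases, with CAMK2A, the alpha kinase subunit of the postsynaptic density, at 0.11 ± 0.06 and PPP1R9B, the spine scaffold spinophilin, at -0.08 ± 0.05.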

How the data were processed

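Total RNA of the cerebellum was sequenced as 150-base read pairs, 1 library per animal, per the labels. The authors deposited a table of unnormalized counts, whole numbers for each Ensembl gene. Trim Galore, HISAT2, HTSeq, DESeq2 and the build Sscrofa11.1 are named per the submitters' processing notes, with versions and strand setting not given in the sources used here. Without strand, antisense neighbours cannot be told from a gene. The 5 closing lines of each table belong to no gene, held 29.9% to 34.6% of reads and were left out.

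Symbols were joined to 15029 of 31907 identifiers. RefSeq positions were joined to those symbols for which one was given, which left out CACNG8 among the members with counts. Genes were filtered with filterByExpr (minimum count 10, total 15), scaled by TMM and tested with edgeR 4.0.16 (R 4.3.3) by the robust quasi-likelihood test on sex and treatment. The interaction came from a model of 4 groups, and body weight was added per SD. Adjustment was by Benjamini-Hochberg over 14994 genes. The test was checked on simulated counts. DESeq2 1.42.0 and limma 3.58.1 (voom) served as alternatives. Correlations used log2(CPM + 0.5) and 100000 permutations, whose smallest p is 1e-05. Intervals are at 95%.

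The members and lists were chosen with earlier results of these data known. Named members were the 8 with the smallest p, those with the most CPM in each class (the rule asked for a level per kilobase, which could not be computed), and 3 each for sex, interaction and weight. For each other list the 2 genes with the smallest p were named, and further members by class. Replicates are numbered in order of deposition, pair no animals, and p-values measure the spread between these animals.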

Additional observations from a re-analysis of the deposited data

Results flagged for a closer look

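In 72 sets of a named member in a sex and treatment group, 2 had an animal far from the others, where chance flags about 1 in 20 sets. CACNG8 was at 62.7 CPM in SHAM replicate 1, a male, and at 47.1 to 50.0 CPM in the other SHAM males. GRIN3A was at 18.5 CPM in SHAM replicate 4, a male, and at 15.3 to 16.5 CPM in the other SHAM males.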

How the results depend on the processing

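Of 814 values recomputed under the alternatives, 755 were labelled the same, 51 reversed, 5 moved, 2 weaker and 1 stronger. The values include counts of genes as well as fold changes, so the label is no uniform test of direction and threshold. No member was called for BDL against SHAM under any alternative, so the threshold did not separate those values. DESeq2 called 1 gene for BDL against SHAM, 23 for sex and 8 for body weight, where edgeR called 0, 9 and 0. The gene called for weight among the members was GRIN3A (1 member, adjusted p = 0.0199, and 0.0199 to 0.377 over the alternatives). Without the count filter, 31 genes were called for sex. The cause was not tested. With treatment and sex means removed, GRIA2 with GRIA4 (r = 0.44, adjusted permutation p = 0.0605) and GRIN2B with GRIA1 (r = 0.42, adjusted permutation p = 0.0714) no longer passed, and GRIN2A with GRIN2C was at r = 0.0179.

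The 51 reversals were of values near zero. GRIN3A was at -0.00425 with limma-voom. GRID1 and DLG2 were at -0.00611 and -0.000594 without the sex term, DLG4 at -0.000603 with weight added, and GRID1 and DLG4 at -0.00491 and -0.00248 with the animal number added. With the oligodendrocyte level, GRID1, DLG2, GRIN3A and HOMER1 were at -0.000235, -0.00153, -0.00484 and 0.00218. GRIK5, DLG4 and CACNG8 were at -0.0106, -0.00395 and 0.0169 with the first component (chosen after seeing the data), and GRIK5 and DLG4 at -0.0164 and -0.0177 without BDL replicates 2, 4 and 8, also chosen after seeing the data.

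Leaving out 1 animal at a time called no gene, left 25 to 33 members on the lower side and moved GRIN2A between -0.53 and -0.37. Those that changed sign ran between -0.0301 and 0.0380 (GRID1), -0.0259 and 0.0410 (DLG2), -0.0169 and 0.0295 (DLG4), -0.0221 and 0.0316 (GRIK5), -0.0233 and 0.0482 (GRIN3A) and -0.0403 and 0.0260 (HOMER1). NETO2 ran between -0.12 and -0.05 and moved by over 1.5 times only without SHAM replicate 7. Values nearer to zero moved by over 1.5 times without any of several animals: GRIN2C ran between -0.0826 (without SHAM replicate 4) and -0.00347 (without SHAM replicate 6), CACNG7 between 0.0148 (without BDL replicate 5) and 0.0567 (without SHAM replicate 6), and CACNG8 between -0.0725 (without BDL replicate 6) and -0.00873 (without SHAM replicate 2). No paired analysis was possible because replicate numbers were given in accession order and tie no animals together. Shares by coding length were not run, since no length of a transcript or protein was at hand, and GRIN2B and GRIN3B, with as few as 11 and 8 counts, are limited by depth.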
